A study of Mus musculus with 10 samples.

Results

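The D-distal IGHV1 genes are the mouse heavy-chain variable (V) genes of the IGHV1, or J558, family whose positional number is above 45. Of the 141 V genes that the *Igh* clonotype tables named alone, 27 belonged to them, from IGHV1-47 to IGHV1-87. A clonotype, here a combination of V, D and J gene with the amino acids of its CDR3, was counted to a gene only when its row named that V gene and no other. Names of the IGHV1S kind, which carry no position, were left out. Another 27 IGHV1 genes had numbers up to 45 and are called D-proximal here, and 66 V genes belonged to other families. In the RefSeq annotation of GRCm38.p6, 44 *Ighv1* genes had numbers above 45, their number order was their order on the chromosome in 43 of 43 steps, and all 24 listed D and J genes lay on the side of the low numbers. RefSeq listed 26 of the 27 genes, all but IGHV1-87, and called 0 of them a pseudogene. Another 6 (IGHV1-52, IGHV1-59, IGHV1-61, IGHV1-62-3, IGHV1-74 and IGHV1-83) stood only in clonotypes that named several V genes, and the other 12, the 8 that RefSeq calls pseudogenes included, are not analysed here.

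A heavy-chain gene is assembled in developing B cells by joining a D to a J segment and then a V segment to DJ, and the CDR3 is the stretch over that junction. V genes far from the D segments reach them only when the locus contracts, and their use is known to need factors such as Pax5 and YY1, whereas the V genes nearest to D are joined readily in fetal life. B-1a cells are a self-renewing B cell subset of the body cavities that arises largely in fetal and neonatal life, when the enzyme TdT, which adds untemplated nucleotides at the junctions, is scarce and CDR3s are short. A new heavy chain is normally tested by pairing with the surrogate light chain (SLC), made of VpreB and λ5, into the pre-BCR.

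The libraries were made from genomic DNA of B-1a cells sorted from the peritoneal cavity of C57BL/6 mice aged 6 to 8 weeks, 2 from wild-type (WT) and 2 from *Igll1*-/- mice, which lack λ5 and so form no SLC. The comparison addresses whether V gene use in B-1a cells depends on SLC. Primers in framework region 3 of V and in J amplified the rearrangements, so usage also reflects how well each V primer worked, and the reads carried no molecular identifier, so a read count mixes cells with PCR copies. The replicates are described as independent experiments, but nothing states that they came from separate mice, and p-values may then measure technical spread only. The libraries held 32386 to 58205 clonotypes and 180593 to 285517 reads, 68.0% to 73.4% of the clonotypes had 1 read, and 3 clonotypes, taken as the floor, were 0.00515% to 0.00926% of a library. Marker expression and *Igll1* itself cannot be read from *Igh* rearrangements. Of the V genes known from B-1a cells, IGHV12-3 held 4.32% to 5.09% of the clonotypes in all libraries, and IGHV11-2 held 2.99% and 4.79% in WT and 0.821% and 0.960% in *Igll1*-/- libraries.

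The clonotypes that carried most reads on the D-distal genes are shown first, because a few of them set the read values given further on. Each line gives the V gene, the J gene and the CDR3 in amino acids, which the tables write from the residue after the conserved cysteine.

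IGHV1-47 with IGHJ3, in all 4 libraries: ARGGFAY.

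IGHV1-53 with IGHJ3, largest in *Igll1*-/- replicate 1: ARQLAY.

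IGHV1-56 with IGHJ4, largest in *Igll1*-/- replicate 1: ARSYYSNYYAMDY.

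IGHV1-82 with IGHJ3, largest in *Igll1*-/- replicate 2: ARGNSAWFAY.

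IGHV1-47 with IGHJ4, largest in *Igll1*-/- replicate 2: ARYDGYYYAMDY.

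IGHV1-64 with IGHJ3, largest in *Igll1*-/- replicate 2: ASGSIAY.

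IGHV1-55 with IGHJ1, seen in WT replicate 2: ADGYHWYFDV.

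IGHV1-78 with IGHJ4, largest in WT replicate 1: ARSSNYAMDY.

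IGHV1-72 with IGHJ2, largest in WT replicate 1: ARREGYGSFDY.

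The D-distal genes together made up about the same share of clonotypes in both genotypes. They held 14710 (26.7%, 95% Wilson interval 26.3% to 27.1%) and 10722 (21.5%, 21.2% to 21.9%) clonotypes of the WT libraries. In the *Igll1*-/- libraries they held 8006 (24.7%, 24.3% to 25.2%) and 13271 (22.8%, 22.5% to 23.1%). Both *Igll1*-/- values lay between the WT values, and the means were 23.8% ± 1.36 against 24.1% ± 3.65 (SD, n = 2 each). With 2 libraries per genotype an exact permutation test cannot give a two-sided p below 0.333, so groups of genes are described by their values. The intervals cover counting error only, and within each genotype those of the replicates did not overlap. The division of clonotypes among the D-distal genes also differed between replicates. Its chi-square was 468 in WT and 1744 in *Igll1*-/- libraries, on 22 degrees of freedom each.

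Set against the D-proximal IGHV1 genes, the D-distal genes held 55.9% and 49.0% of the IGHV1 clonotypes in the WT and 54.3% and 52.0% in the *Igll1*-/- libraries. The balance of the family around its midpoint thus overlapped between genotypes. Among unproductive clonotypes, which are marked as encoding no complete heavy chain, the D-distal share was 53.6% and 50% in WT and 61% and 53.9% in *Igll1*-/- libraries, on 520 to 1036 unproductive D-distal clonotypes per library. These did not overlap, with *Igll1*-/- replicate 2 just above WT replicate 1.

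By reads, the D-distal genes took 17.5% and 14.9% of the WT and 19.3% and 17.9% of the *Igll1*-/- libraries, a difference of 2.40 percentage points with no overlap. The separation rested on 1 clonotype. Without the IGHV1-47 clonotype with CDR3 ARGGFAY, the values were 17.2% and 14.5% in WT and 17.0% and 17.6% in *Igll1*-/- libraries and overlapped. A D-distal clonotype had 2.58 and 2.95 reads on average in the WT and 4.36 and 3.85 in the *Igll1*-/- libraries. D-proximal clonotypes were also larger in both *Igll1*-/- libraries, at 3.30 and 3.92 against 2.57 and 2.77 reads. So were clonotypes of other families, at 7.72 and 6.26 against 5.93 and 6.20 reads. When a clonotype that named several V genes was divided evenly among them, the D-distal share of clonotypes was 32.3% and 30.8% in WT and 30.8% and 28.5% in *Igll1*-/- libraries, and the groups no longer overlapped, with the *Igll1*-/- values lower. With WT replicate 1 left out the difference in the undivided share was 2.23 percentage points, and with WT replicate 2 left out it was -2.92.

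Usage was uneven along the order, with 23 or 24 of the 27 genes at 10 or more clonotypes in each library and a median gene at 0.498% to 0.726% of its clonotypes. In WT replicate 1 the 5 most used genes held 54.6% of the D-distal clonotypes, and in the other libraries 49.8% to 51.2%. The effective number of genes, the number of equally used genes with the same Shannon entropy, was 15.6 and 16.9 in WT and 16.1 and 15.8 in *Igll1*-/- libraries. The shares followed position only weakly. The Spearman rho between positional number and share of clonotypes was 0.15 and 0.14 in WT and 0.08 and 0.26 in *Igll1*-/- libraries, over 27 genes that share libraries and primers, and between -0.08 and 0.13 by reads.

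**Figure D1:**
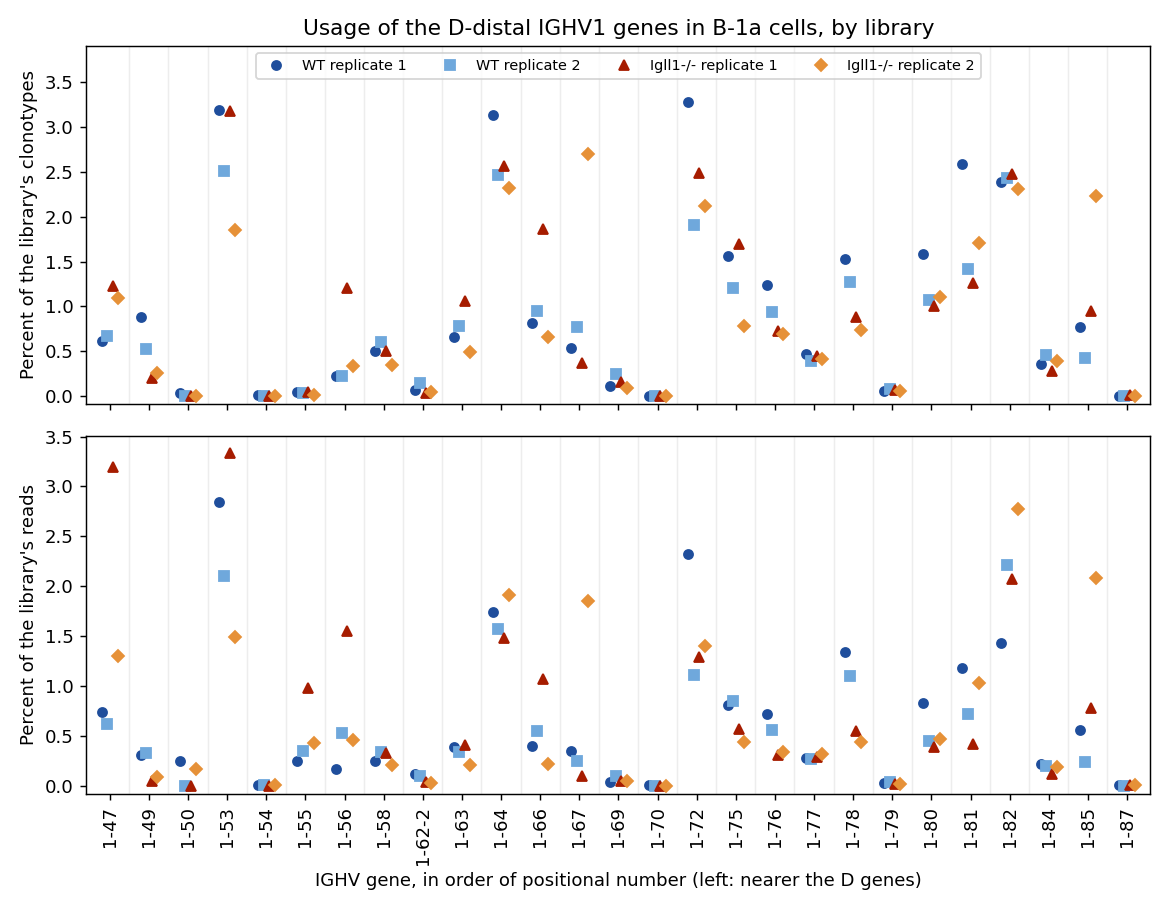
Each symbol is the percent of a library's clonotypes (top) or reads (bottom) on a D-distal IGHV1 gene, with the genes in order of positional number on the horizontal axis and a symbol for each of the 4 libraries. IGHV1-53, IGHV1-64, IGHV1-72 and IGHV1-82 stand high in every library by clonotypes, IGHV1-67 and IGHV1-85 stand high in *Igll1*-/- replicate 2 alone, and IGHV1-47 by reads stands highest in *Igll1*-/- replicate 1.

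The genes used most by clonotypes were spread over the whole region. IGHV1-53 held 3.18% and 2.51% of the WT and 3.17% and 1.85% of the *Igll1*-/- clonotypes. IGHV1-64 held 3.13% and 2.46% against 2.57% and 2.32%. IGHV1-72 held 3.27% and 1.91% against 2.49% and 2.12%. All 3 overlapped between genotypes, and within WT they differed more between replicates than their means did between genotypes. IGHV1-82 was the steadiest of the well-used genes, at 2.39% and 2.43% in WT and 2.48% and 2.31% in *Igll1*-/- libraries. IGHV1-81, its neighbour, was not, at 2.58% and 1.42% against 1.26% and 1.70%. IGHV1-75 (1.57% and 1.20% against 1.70% and 0.785%) and IGHV1-80 (1.59% and 1.07% against 1.0% and 1.11%) followed, both with overlapping libraries. At the far end, IGHV1-84 held 0.357% and 0.460% against 0.287% and 0.397%. IGHV1-87, the most distal gene seen, had 0.00402% to 0.0124% of a library, near the floor.

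Split by number, the 10 genes from 76 to 87 held 11.0% and 8.49% of the WT and 8.11% and 9.66% of the *Igll1*-/- clonotypes. The 6 genes from 46 to 55 held 4.78% and 3.75% against 4.65% and 3.23%, and the 5 from 56 to 65 held 4.60% and 4.21% against 5.38% and 3.54%. In these 3 stretches the genotypes overlapped. The 6 genes from 66 to 75 held 6.31% and 5.07% in WT and 6.57% and 6.37% in *Igll1*-/- libraries, both above WT. In *Igll1*-/- replicate 2 this stretch was carried by IGHV1-67.

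Of the 27 genes, 23 had at least 10 clonotypes in at least 2 libraries and were tested. IGHV1-50, IGHV1-54, IGHV1-70 and IGHV1-87 were not. At an adjusted p under 0.05, 0 of the 23 differed in usage between genotypes, as for 0% of the 91 V genes tested (edgeR's quasi-likelihood test, Benjamini-Hochberg adjustment over all V genes). At an unadjusted p under 0.05 there was 1, IGHV1-49, against 8.79% of all V genes. DESeq2 called 0 of the 23 at the adjusted threshold, against 1 of the 91 V genes. Both *Igll1*-/- libraries were higher for 3 genes (13%, against 17.6% of all V genes tested) and lower for 5 (21.7%, against 19.8%). The fitted change was below 0 for 17 of 23 genes (73.9%, against 52.7% of all V genes) and above 0 for 6 (26.1%, against 47.3%), with a median log2 fold change of -0.18 against -0.03 over all. Leaving out *Igll1*-/- replicate 1 gave 2 calls, IGHV1-67 and IGHV1-85, among 3 over all 91 V genes tested, and leaving out *Igll1*-/- replicate 2 gave 1, IGHV1-56, among 6 of 87. These fits set 1 *Igll1*-/- library against 2 WT libraries, so the lone library is assumed to vary as the WT libraries do.

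**Figure D2:**
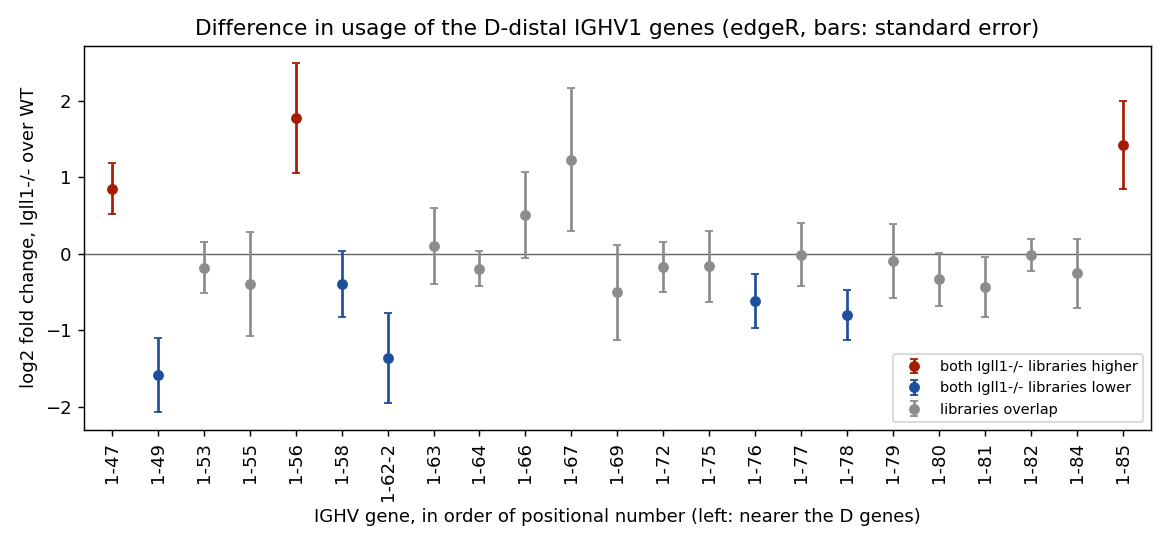
The log2 fold change in usage (*Igll1*-/- over WT) with its standard error from edgeR is plotted for the 23 D-distal genes tested, in order of positional number. Red points mark the 3 genes with both *Igll1*-/- libraries above both WT libraries, blue points the 5 with both below, and grey points the genes whose libraries overlapped.

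IGHV1-47, the tested gene nearest to D, was higher in both *Igll1*-/- libraries. It held 0.620% and 0.669% of the WT clonotypes and 1.23% and 1.09% of the *Igll1*-/- clonotypes, with a log2 fold change of 0.85 (SE 0.33, edgeR adjusted p = 0.412). By reads it held 0.741% and 0.617% against 3.19% and 1.30%. IGHV1-56 held 0.229% and 0.221% in WT and 1.21% and 0.333% in *Igll1*-/- libraries, with a log2 fold change of 1.77 (SE 0.72, edgeR adjusted p = 0.412). *Igll1*-/- replicate 1 was far above the other 3 libraries. Without it the log2 fold change was 0.57, and without *Igll1*-/- replicate 2 it was 2.42 (edgeR adjusted p = 0.0094, with the spread from the WT libraries only). IGHV1-85, the last tested gene of the order, held 0.767% and 0.422% against 0.954% and 2.23%, with a log2 fold change of 1.42 (SE 0.57, edgeR adjusted p = 0.412). Without *Igll1*-/- replicate 1 it was 1.91 (edgeR adjusted p = 0.022), again with 1 *Igll1*-/- library, the high one, and the spread from WT only.

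IGHV1-49, which neighbours IGHV1-47 in the tested order, lay the other way. It held 0.878% and 0.532% of the WT and 0.204% and 0.265% of the *Igll1*-/- clonotypes, with a log2 fold change of -1.59 (SE 0.48, edgeR adjusted p = 0.412), and by reads 0.307% and 0.329% against 0.0454% and 0.0820%. IGHV1-78 held 1.53% and 1.27% against 0.883% and 0.734% (log2 fold change -0.80, SE 0.32, edgeR adjusted p = 0.412). IGHV1-76 held 1.24% and 0.944% against 0.726% and 0.696% (-0.62, SE 0.35). The adjacent tested genes IGHV1-77 and IGHV1-79 overlapped between genotypes, IGHV1-77 at 0.472% and 0.396% against 0.445% and 0.417%. IGHV1-62-2 held 0.0707% and 0.145% against 0.0401% and 0.0430% (-1.36, SE 0.59), on 13 to 72 clonotypes a library. IGHV1-58 held 0.506% and 0.604% against 0.50% and 0.347% (-0.39, SE 0.43), so its *Igll1*-/- replicate 1 was only just below WT replicate 1.

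IGHV1-67 stood apart because its level depended on the library. It held 0.539% and 0.771% of the WT clonotypes and 0.371% of *Igll1*-/- replicate 1, but 2.70% (95% Wilson interval 2.57% to 2.83%) of *Igll1*-/- replicate 2, where it was the most used D-distal gene with 1570 clonotypes. The genotypes overlapped, and the log2 fold change of 1.23 (SE 0.93, edgeR adjusted p = 0.645) became 2.04 (edgeR adjusted p = 0.014, with the spread from the WT libraries only) without *Igll1*-/- replicate 1 and -0.82 without *Igll1*-/- replicate 2. The tables carry the IMGT code P (pseudogene) on IGHV1-67, as on IGHV1-70 and IGHV1-79, and the code F (functional) on the other 24 genes. Of the IGHV1-67 clonotypes, 19.2% and 63.0% in WT and 36.7% and 43.4% in *Igll1*-/- libraries had a J gene and CDR3 that also stood on a different V gene with at least 10 times the reads, against 13.6% and 33.4%, and 26.0% and 33.3%, of all clonotypes. When such clonotypes were left out of the library, IGHV1-67 still held 0.504%, 0.428%, 0.317% and 2.29%, in the same order of libraries. IGHV1-85, which was likewise high in *Igll1*-/- replicate 2, held 0.797%, 0.476%, 0.935% and 2.11% without them.

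The difference in usage among the D-distal genes was then measured as the percent of their clonotypes that would have to change gene to make a pair of libraries equal. It was 10.5% between the WT replicates and 20.7% between the *Igll1*-/- replicates. The 4 pairs of a WT and an *Igll1*-/- library gave 15.1% to 21.5%. The *Igll1*-/- replicates thus differed from each other about as much as the genotypes did.

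The read values were set by few large clonotypes. The IGHV1-47 clonotype ARGGFAY, for which the table names no D gene, had 798 and 717 reads in the WT and 4307 and 833 in the *Igll1*-/- libraries. That was 49.9% and 54.6% of the IGHV1-47 reads in WT, 74.7% in *Igll1*-/- replicate 1 and 22.5% in *Igll1*-/- replicate 2, and its V part was 100% identical to germline. Each of the other CDR3s listed at the start had 82.1% to 100% of its reads in 1 library. ARQLAY on IGHV1-53 had 1514 of its 1553 reads in *Igll1*-/- replicate 1, and ARSYYSNYYAMDY on IGHV1-56 had 1090 of 1097 there. In *Igll1*-/- replicate 2, ARGNSAWFAY on IGHV1-82 had 1885 of 1942 reads, ARYDGYYYAMDY on IGHV1-47 had 1493 of 1504 and ASGSIAY on IGHV1-64 had 1329 of 1342. The first and the second of these were marked unproductive, although neither CDR3 shows a stop. In WT replicate 2, ADGYHWYFDV on IGHV1-55 had 447 reads.

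IGHV1-55 showed how far reads and clonotypes can part. It had 26, 17, 15 and 10 clonotypes in WT replicates 1 and 2 and *Igll1*-/- replicates 1 and 2, yet 0.247% and 0.346% of the WT and 0.979% and 0.432% of the *Igll1*-/- reads. A clonotype that named IGHV1-55 alone thus had 20.5 and 43.3 reads on average in WT and 118 and 123 in *Igll1*-/- libraries. The largest clonotype held 28.8% and 60.7% of the IGHV1-55 reads in WT and 43.7% and 82.2% in *Igll1*-/- libraries. Far more clonotypes named IGHV1-50 or IGHV1-55 together: 1.23% and 1.73% of the WT and 1.05% and 1.02% of the *Igll1*-/- clonotypes, lower in both *Igll1*-/- libraries. By reads, 4 of the 23 tested genes (IGHV1-47, IGHV1-55, IGHV1-77 and IGHV1-85) were higher in both *Igll1*-/- libraries (17.4%, against 20.9% of all V genes) and 7 were lower (30.4%, against 19.8%).

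Clonotypes that named several V genes, at least 1 of them D-distal, made up 6.01% and 9.98% of the WT and 6.48% and 6.53% of the *Igll1*-/- libraries. The most frequent pair was IGHV1-69 or IGHV1-74, at 2.14% and 4.66% against 2.92% and 1.85%, while IGHV1-69 alone held only 0.111% and 0.245% against 0.157% and 0.0945%. The pair IGHV1-52 or IGHV1-61 held 0.522% and 0.193% in WT and 0.0865% and 0.0739% in *Igll1*-/- libraries, both lower. The low shares of IGHV1-50, IGHV1-55 and IGHV1-69 are therefore minimum values.

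Sharing between libraries was counted over 38982 combinations of D-distal V gene, J gene and CDR3. Most, 85.8%, were seen in 1 library, and 343 (0.880%) in all 4. Mean CDR3 length was 10.7 amino acids for those in 1 library, 10.4 in 2, 10.1 in 3 and 9.48 in 4, and the share with no D gene named went from 4.87% to 13.1%, so the combinations seen in more libraries were shorter. Of the 343, 23 had at least 90% of their reads in 1 library. At least 10 reads in each library were found for 4: ARGGFAY on IGHV1-47, ASGTFAY on IGHV1-53 with IGHJ3, AVLYYFDY on IGHV1-64 with IGHJ2 and ARSLGDYFDY on IGHV1-81 with IGHJ2. ANWDFDY on IGHV1-82 with IGHJ2 was also in all 4, with 5 and 167 reads in WT and 675 and 625 in *Igll1*-/- libraries.

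Most D-distal clonotypes were productive, that is, marked as in frame and encoding a chain over the amplified part of the rearrangement. Amplification started inside V, so this mark cannot show a defect upstream of the V primers. The productive share was 93.0% (95% Wilson interval 92.5% to 93.4%) and 91.7% (91.2% to 92.2%) in WT libraries. It was 93.5% (92.9% to 94.0%) and 93.6% (93.2% to 94.0%) in *Igll1*-/- libraries. Both *Igll1*-/- values were higher, by 1.22 percentage points on average, and WT replicate 2 was the low one; the difference was 0.597 without it and 1.85 without WT replicate 1. Without the clonotypes whose J gene and CDR3 stood on another V gene with at least 10 times the reads, the values were 92.8% and 90.6% in WT and 92.4% and 92.0% in *Igll1*-/- libraries and overlapped. The D-proximal genes were also higher in both *Igll1*-/- libraries, at 92.3% and 92.0% against 95.1% and 94.1%. On other families the genotypes overlapped, at 91.7% and 93.6% against 92.5% and 93.3%. Over all clonotypes of a library the productive share was 92.3% and 93.0% in WT and 93.98% and 93.97% in *Igll1*-/- libraries. Of the unproductive D-distal clonotypes, 71.0% and 88.1% in WT and 82.9% and 87.5% in *Igll1*-/- libraries had a stop in the CDR3.

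Gene by gene, 0 of 23 passed an adjusted p of 0.05 for a difference in productive share, as for 0% of the 79 V genes tested (edgeR's quasi-likelihood test of the interaction between genotype and productivity). At an unadjusted p under 0.05 there were 3, IGHV1-66, IGHV1-77 and IGHV1-82 (13%, against 12.7% of all). Both *Igll1*-/- libraries were higher for 9 genes (39.1%, against 34.2%) and lower for 2 (8.7%, against 11.4%), IGHV1-63 and IGHV1-69. The fitted difference was above 0 for 16 (69.6%, against 65.8%) and below 0 for 7 (30.4%, against 34.2%). Leaving out WT replicate 1 gave 2 calls, IGHV1-66 and IGHV1-82, among 4 over 79 V genes, and leaving out WT replicate 2 gave 1, IGHV1-67, among 8 over 80, with the spread from the *Igll1*-/- libraries only. IGHV1-66 was 94.5% and 86.0% productive in WT against 96.2% and 95.3% in *Igll1*-/- libraries. IGHV1-77 was 93.1% and 88.3% productive against 97.2% and 96.3%, and IGHV1-82 was 94.1% and 88.8% against 95.4% and 95.1%. In all 3 genes WT replicate 2 had the lowest value.

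**Figure D3:**
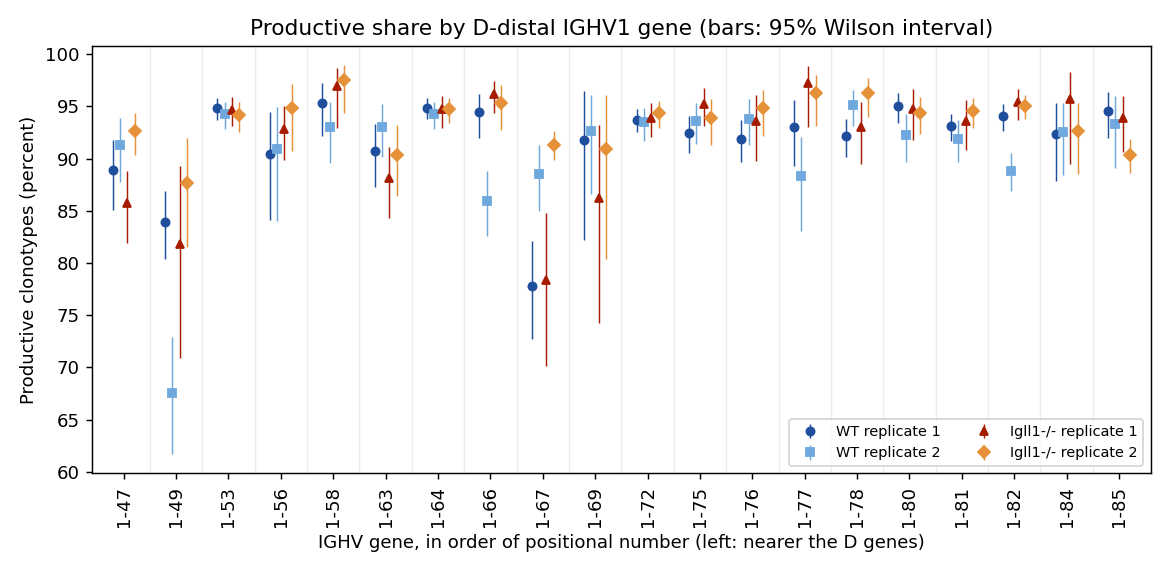
The percent of productive clonotypes, with its 95% Wilson interval, is plotted for each library and each D-distal gene with at least 30 clonotypes in every library, in order of positional number. Most genes lie above 90% in all libraries, IGHV1-49 lies below 90% in all 4 libraries and IGHV1-67 in 3 of them, and WT replicate 2 lies low for IGHV1-49, IGHV1-66, IGHV1-77 and IGHV1-82.

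Among genes with at least 30 clonotypes in every library, the lowest mean productive share was that of IGHV1-49, at 83.9% and 67.5% in WT and 81.8% and 87.7% in *Igll1*-/- libraries. IGHV1-67 was next, at 77.8% and 88.5% against 78.3% and 91.3%. IGHV1-47 (88.9% and 91.3% against 85.7% and 92.6%), IGHV1-63 (90.7% and 93.1% against 88.1% and 90.3%) and IGHV1-69 (91.8% and 92.6% against 86.3% and 90.9%) were also low. The highest among them was IGHV1-58, at 95.3% and 93.0% against 96.9% and 97.5%. The heavily used IGHV1-53 and IGHV1-64 stayed between 94.1% and 94.9% in all libraries. The 3 genes coded P were 78.6% and 88.9% productive in WT and 80.3% and 91.4% in *Igll1*-/- libraries, against 93.3% and 91.8%, and 93.7% and 93.9%, for the 24 coded F. Among clonotypes with at least 2 reads, the genes coded P were lower in WT (75.8% and 87.7% against 95.6% and 91.3%) but not in *Igll1*-/- libraries (95.65% and 95.42% against 94.98% and 95.13%, on 23 and 590 clonotypes of the genes coded P). IGHV1-67 clonotypes with no larger counterpart on another V gene were 73.8%, 78.9%, 65.8% and 86.6% productive in WT replicates 1 and 2 and *Igll1*-/- replicates 1 and 2. Those with a counterpart were 94.7%, 94.2%, 100% and 97.5% productive. The productive mark cannot show a defect upstream of the V primers. These shares therefore do not show whether rearrangements of the genes coded P encode a heavy chain.

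The CDR3 of productive D-distal clonotypes averaged 10.84 and 10.37 amino acids in WT and 10.45 and 10.11 in *Igll1*-/- libraries. The difference of -0.32 was close to the spread between replicates, the groups overlapped, and without WT replicate 1 the difference was -0.084. Weighted by reads the means were 10.06 and 9.64 against 9.59 and 9.61 and did not overlap. These means include ARGGFAY on IGHV1-47, a CDR3 of 7 amino acids. It had 798 and 717 reads in WT and 4307 and 833 in *Igll1*-/- libraries. The read-weighted means were not computed without it, so its part in the separation was not tested. CDR3s of 8 or fewer amino acids made up 21.7% and 26.4% of the WT and 26.1% and 29.5% of the *Igll1*-/- clonotypes, and those of 13 or more 27.9% and 22.3% against 24.2% and 20.5%. On the D-proximal genes the means were 10.51 and 10.33 in WT against 9.93 and 9.86 in *Igll1*-/- libraries and did not overlap. On V genes of other families they were 11.06 and 11.00 against 11.08 and 10.90.

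**Figure D4:**
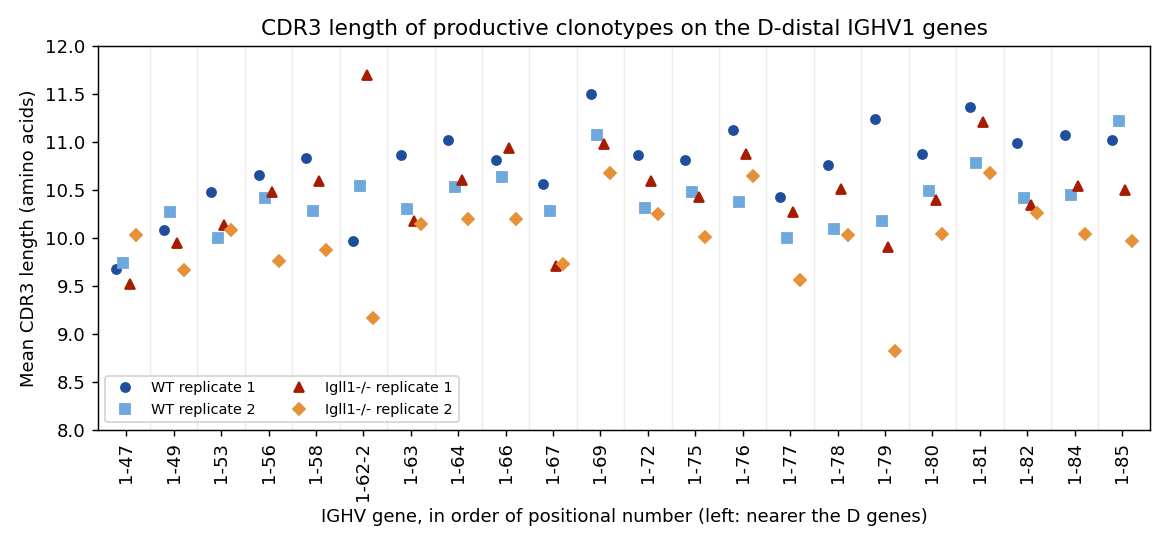
Mean CDR3 length of productive clonotypes, in amino acids, is plotted for each library and each of the 22 D-distal genes tested, in order of positional number. *Igll1*-/- replicate 2 is the lowest library for most genes, and IGHV1-62-2, with 10 productive clonotypes in *Igll1*-/- replicate 1, spreads most.

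For single genes, 0 of 22 passed an adjusted p of 0.05 for a difference in mean CDR3 length, against 1.3% of the 77 V genes tested (limma, Benjamini-Hochberg adjustment). At an unadjusted p under 0.05 there were 2, IGHV1-79 and IGHV1-85 (9.09%, against 13%). Both *Igll1*-/- libraries were lower for 9 genes (40.9%, against 37.7% of all) and higher for 0 (0%, against 10.4%). The fitted difference was below 0 for 19 of 22 (86.4%, against 64.9%) and above 0 for 3 (13.6%, against 35.1%), with a median of -0.37 amino acids against -0.17. IGHV1-85 averaged 11.02 and 11.21 amino acids in WT and 10.50 and 9.97 in *Igll1*-/- libraries, a difference of -0.88 (SE 0.36, limma adjusted p = 0.273). IGHV1-79 averaged 11.24 and 10.17 against 9.90 and 8.82, a difference of -1.34 (SE 0.42, limma adjusted p = 0.133). These means rest on 20 to 35 productive clonotypes a library. IGHV1-67 averaged 10.56 and 10.28 against 9.70 and 9.73 (-0.71, SE 0.35), so it was shorter in both *Igll1*-/- libraries while its usage overlapped. The gene with the longest CDR3s among the well-used genes, IGHV1-81, averaged 11.36 and 10.78 against 11.20 and 10.67.

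Other features of the D-distal clonotypes were compared within each library, 7 features against each of 2 sets of genes (D-proximal IGHV1 and other families), and with 4 libraries the smallest p of the exact sign-flip test is 0.125 (0.175 after Benjamini-Hochberg adjustment over the 14). A V part 100% identical to germline was found for 41.2% to 46.7% of D-distal against 60.8% to 66.6% of D-proximal clonotypes, lower in 4 of 4 (exact p = 0.125), and for 25.3% to 39.4% on other families, where the D-distal share was higher in 4 of 4 (exact p = 0.125). This V part starts in framework region 3, and whether primer bases count in it is not stated. The source of the mismatches, somatic mutation included, was not tested. CDR3s were longer by 0.288 amino acids ± 0.203 (SD over 4 libraries) than on D-proximal genes, and shorter by 0.565 ± 0.245 than on other families, each in 4 of 4 libraries (exact p = 0.125). For the remaining features, the D-distal value was higher in these numbers of the 4 libraries, against D-proximal genes first and other families second. They were 4 and 4 for IGHJ3, 0 and 4 for CDR3s of 8 or fewer amino acids, and 1 and 4 for no D gene named. Reads per clonotype gave 3 and 0, and productive share 1 and 3. The exact p was 0.125 where all 4 libraries went the same way and 0.375 to 0.875 otherwise. Values for J genes, D genes and CDR3 length in this comparison cover productive clonotypes only. IGHJ3 was joined in 25.3% and 20.9% of the WT and 28.2% and 27.8% of the *Igll1*-/- productive D-distal clonotypes, higher in both *Igll1*-/- libraries. IGHJ2 was joined in 47.0% and 47.3% against 44.0% and 44.1%, lower in both. On other families IGHJ3 was likewise higher in both *Igll1*-/- libraries, at 24.0% and 17.9% against 26.2% and 27.0%, whereas on D-proximal genes both segments overlapped between genotypes, IGHJ3 at 22.7% and 16.9% against 21.6% and 24.0%. IGHD1-1 was the most named of the 3 D genes counted (IGHD1-1, IGHD2-3 and IGHD4-1). It was named in 31.1% and 28.4% against 29.4% and 31.4% of the productive D-distal clonotypes.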

How the data were processed

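Genomic DNA of sorted peritoneal B-1a cells was amplified with V framework region 3 and J primers, products of 120 to 280 bp were kept and 4 *Igh* libraries were sequenced on a HiSeq, per the labels. The authors ran IMGT/High-V-QUEST on the reads, and the tables they deposited hold 1 row per clonotype with its read count. The tables also give, as deposited by the authors, the percent identity of each V part to germline. Tool versions and the IMGT reference release are not given in the sources used here, and 0 columns of per-sample values were left unmapped. The *Igk* libraries were not used.

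A clonotype counted as 1 on its V gene whatever its reads, with all clonotypes of the library as the total, because the study compares shares of clonotypes. Clonotypes naming several V genes stayed in the total only. CDR3 length is the number of letters of the CDR3, stops included, over productive clonotypes. V genes reaching 10 clonotypes in 2 libraries or more were tested for usage with edgeR 4.0.16 in R 4.3.3, on all 4 libraries without a block. Productive share was tested with the edgeR interaction of genotype and productivity, and mean CDR3 length with limma 3.58.1, both over V genes with at least 10 clonotypes (for length, productive ones) in every library and with Benjamini-Hochberg adjustment over all V genes tested. Each procedure was tested on simulated data with planted changes larger than those fitted here for the D-distal genes. These simulations do not show whether changes of the size seen here would be called. Exact tests were run in Python 3.11.15. Wilson intervals have a confidence level of 95%. Alternatives were TMM factors, DESeq2 1.42.0, no filter, a replicate block, reads in place of clonotypes, at least 2 or 10 reads, productive clonotypes, several V genes divided, and each library left out. Leaving out or merging clonotypes that repeat a larger one, weighting limma by clonotype number and leaving out the largest clonotypes were chosen after seeing the data. The genes and lists were chosen with earlier results of these data known.

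Named genes were the 10 with the largest mean share, the 5 most distal of those tested, up to 5 per direction with separated libraries and the largest changes, the 5 lowest and 5 highest productive shares at 30 or more clonotypes in every library, any gene past an adjusted p of 0.05, and any whose libraries differed over 10-fold. Named clonotypes were the 3 largest per library, 1 of which is not reported here, and the 5 with most reads among those in all 4. IGHV1-55, IGHV1-66, IGHV1-77, IGHV1-79, the genes too rare to test, the pairs of V genes and the clonotypes with at least 10 reads in every library were named after their values were seen.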

Additional observations from a re-analysis of the deposited data

Results flagged for a closer look

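Clonotypes that named IGHV1-21 or IGHV1-85 together were counted to no gene in the comparisons of usage, and both *Igll1*-/- libraries were higher for them. Separated libraries were not particular to this pair. The pairs IGHV1-50 or IGHV1-55 and IGHV1-52 or IGHV1-61, for example, were lower in both *Igll1*-/- libraries. Clonotypes naming IGHV1-21 or IGHV1-85 made up 0.0109% and 0.0321% of the WT clonotypes (6 and 16 clonotypes). In *Igll1*-/- libraries they made up 0.0525% and 0.320% (17 and 186), a mean of 0.186% against 0.0215%. The high library, *Igll1*-/- replicate 2, was also the one in which IGHV1-85 alone was highest, at 2.23% of clonotypes. The difference was not tested.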

How the results depend on the processing

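With 2 libraries per genotype each comparison rests on few samples, and 68.0% to 73.4% of the clonotypes on 1 read. The number of D-distal genes past an adjusted p of 0.05 in usage stayed at 0 in all alternatives that kept the 4 libraries. Over all V genes tested, these alternatives called 1 of 91 with DESeq2 and 1 of 100 by reads. They called 3 of 42 with at least 10 reads, 1 of 87 without clonotypes sharing J and CDR3, and 0 otherwise. The number of D-distal genes called depended on which library was left out, as given above. For productive share it was 0 to 2 with a library left out (0 to 8 over all V genes), and 1 (IGHV1-77, among 5 of 79 V genes) with the replicate number as a block. For CDR3 length it was 0 to 1 with a library left out (0 to 3 over all V genes), and 2 (IGHV1-64 and IGHV1-85, among 8 of 77) with limma weighted by clonotype number. The cause was not tested. The labels do not say what a shared replicate number means, and same-numbered libraries deviated from their group means with a correlation of 0.31 over 91 V genes, the mirror, by construction, of -0.31 for different numbers. The replicate block changed 0 calls of usage among the named genes and gave IGHV1-56 a log2 fold change of 1.5.

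The rise in productive share moved from 1.22 to 0.499 percentage points without clonotypes sharing J and CDR3 with a larger clonotype on another V gene, and ran from 0.597 to 1.85 with a library left out. The genotypes also overlapped in it by reads and with at least 2 reads per clonotype. The difference in share of clonotypes, -0.34, ran from -2.92 to 2.23 with a library left out, and was 2.40 by reads and 1.18 with at least 2 reads. The difference in mean CDR3 length, -0.32, ran from -0.56 to -0.084 with a library left out and from -0.47 to -0.22 under the other alternatives, with no overlap between genotypes by reads or with at least 10 reads. The value by reads includes the large ARGGFAY clonotype and was not computed without it. Of 260 values of 19 named genes under the alternatives, 236 kept direction and side of the threshold, 3 became calls and 21 changed sign, 11 of them with a library left out; 10 genes never changed sign. Most sign changes were near 0. IGHV1-82 (-0.01) had 0.0050 with TMM factors, 0.0096 with DESeq2, 0.026 over productive clonotypes, 0.022 without clonotypes sharing J and CDR3, 0.41 by reads and 0.19 with at least 10 reads per clonotype. IGHV1-63 (0.11) had -0.22 by reads, -0.42 with at least 10 reads and -0.072 without clonotypes sharing J and CDR3, and IGHV1-64 (-0.19) had 0.037 by reads. With a library left out, the log2 fold change ran from -0.62 to 0.16 for IGHV1-53, -0.54 to 0.56 for IGHV1-63, -0.82 to 2.04 for IGHV1-67, -0.96 to 0.18 for IGHV1-69, -0.51 to 0.27 for IGHV1-72, -0.82 to 0.29 for IGHV1-75, -0.80 to 0.064 for IGHV1-81 and -0.064 to 0.039 for IGHV1-82.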
